A study of Mus musculus with 180 samples.

Results

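The Krüppel-like factors (KLFs) described here are 8 transcription factor genes, Klf2, Klf3, Klf4, Klf6, Klf7, Klf9, Klf10 and Klf13, chosen by their symbols from the 45070 genes of the table. They were measured by RNA-seq in 180 samples of wild-type macrophages differentiated in culture from the bone marrow of young adult male C57/BL6 mice. Each culture was exposed for 1 h to a clinical kinase inhibitor (CKI) or to the vehicle DMSO and then, in all groups, to 10 ng/mL LPS for 2 h, so that no group shows the unstimulated state. There were 58 CKIs with 3 replicates each and 6 DMSO samples, which the labels divide into 2 sets of 3. CKIs were used at different concentrations, so their values are given side by side and not as a comparison of potency. CKIs are grouped here by the targets they are designated for, but the study set each concentration by a kinase bound in vitro, which for all 5 PI3K/mTOR inhibitors was another protein (CLK1 for BGT226, IRAK3 for Omipalisib, JAK1 for Apitolisib, CSNK2A2 for PF04691502 and PFKP for AZD2014), so that how far PI3K or mTOR was inhibited is not known from these data. The total of normalized values was 10521148 in the median sample, and ran from 9477340 to 12273349.

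KLFs bind GC-rich and CACCC sequences through a zinc finger domain at their C-terminal end, and differ in the activating or repressing regions that precede it. Klf2 and Klf4 are known for restraining inflammatory activation of myeloid and endothelial cells, and Klf2 is a textbook target of FOXO factors in lymphocytes. PI3K activates AKT, which keeps FOXO factors out of the nucleus, and mTOR acts both downstream and upstream of AKT.

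In the presence of DMSO the KLF genes spanned a wide range of levels. Per kilobase of gene model, Klf6 was at 1621 ± 174 normalized units (SD, n = 6), followed by Klf7 at 208 ± 85.4, Klf13 at 168 ± 92.2 and Klf3 at 61.8 ± 20.5. The ranges of Klf7 and Klf13 overlapped, and the order of this pair is within their spread. Klf10 was at 17.9 ± 2.86 per kilobase. Klf4 at 3.28 ± 1.58, Klf9 at 3.05 ± 1.24 and Klf2 at 2.57 ± 1.66 were the lowest and did not differ beyond their spread. Klf2 was the only one of the 8 with a mean under 10 over all samples (7.41) and was therefore not among the 12714 genes tested, while the other 7 were. Klf4 (12.4) and Klf9 (16.1) also had a mean above 10 without the 3 CKIs that raised them most.

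RefSeq promoters on GRCm38.p6 were found for 7 of the 8 genes, and the 250 bases before the start were searched on both strands. GTAAACA, the core of the FOXO recognition sequence, was found in Klf9 (3.17% of 32851 promoters held it), its variant ATAAACA in Klf4 (4.16%), and a match to the MEF2 box, which ERK5 signalling uses, in Klf2 (2.92%). The GC box GGGCGG, to which KLF and SP factors bind, was in 6 of the 7 (32.7% of all promoters), and CACGTG was in Klf4 and Klf6 (6.02%). A match to the CArG box was in 0 of the 7 (1.47% of all promoters). The 3 promoters with a FOXO-type or MEF2-type match are shown because their genes had the largest rises, together with Klf6, the most abundant gene, which had neither. Capitals mark these matches, and the reverse strand reads TGTTTAT for ATAAACA. They lie at chr8:72318812-72319061 (plus strand), chr4:55532476-55532725 (minus strand), chr19:23140976-23141225 (plus strand) and chr13:5861239-5861488 (plus strand). A match is a description of the letters and not evidence of binding.
Klf2: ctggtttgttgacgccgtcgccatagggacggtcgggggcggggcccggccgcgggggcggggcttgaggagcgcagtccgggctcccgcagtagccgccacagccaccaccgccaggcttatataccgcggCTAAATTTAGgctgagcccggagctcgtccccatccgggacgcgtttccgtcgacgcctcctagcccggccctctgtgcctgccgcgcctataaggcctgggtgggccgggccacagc
Klf4: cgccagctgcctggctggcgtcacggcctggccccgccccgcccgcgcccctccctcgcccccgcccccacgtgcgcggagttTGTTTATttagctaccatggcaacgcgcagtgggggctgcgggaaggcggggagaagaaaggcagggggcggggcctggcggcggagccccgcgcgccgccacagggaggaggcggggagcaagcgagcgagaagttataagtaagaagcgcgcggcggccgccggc
Klf9: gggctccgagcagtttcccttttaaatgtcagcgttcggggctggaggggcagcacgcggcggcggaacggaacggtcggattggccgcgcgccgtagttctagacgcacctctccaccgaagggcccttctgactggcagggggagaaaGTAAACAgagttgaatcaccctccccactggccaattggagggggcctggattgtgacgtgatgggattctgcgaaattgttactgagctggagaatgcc
Klf6: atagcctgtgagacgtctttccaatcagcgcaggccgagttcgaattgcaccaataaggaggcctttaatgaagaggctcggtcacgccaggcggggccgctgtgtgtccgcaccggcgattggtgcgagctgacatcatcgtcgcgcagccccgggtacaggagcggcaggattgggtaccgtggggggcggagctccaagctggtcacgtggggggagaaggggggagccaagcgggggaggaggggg

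The question was how these genes responded to inhibitors of the PI3K, AKT and mTOR kinases: BGT226, Omipalisib, Apitolisib and PF04691502, which target both PI3K and mTOR, AZD2014, which targets mTOR, AZD8186 and TG100115, which target PI3K, and MK2206 and GSK2110183, which target AKT. Klf6, Klf4 and Klf9 were higher with BGT226, Omipalisib and PF04691502, by between 1.7-fold and 5.7-fold of the DMSO mean. Klf10 was higher with BGT226 and PF04691502. Of the 7 KLF genes tested, none passed the test with AZD8186, TG100115, MK2206 or GSK2110183, with which 0%, 0.0236%, 0.983% and 0% of all genes were higher. With the replicate number as a block, Klf13 passed with TG100115 and with MK2206. The shares just given are from the fit without the block. Over the 58 CKIs, 2.52% of all gene and CKI pairs were higher without the block and 4.6% with it. Each CKI was compared with the same 6 DMSO samples, so the comparisons are not independent of each other. In bulk RNA, fewer cells expressing a gene and less RNA per cell cannot be told apart.

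**Figure D1:**
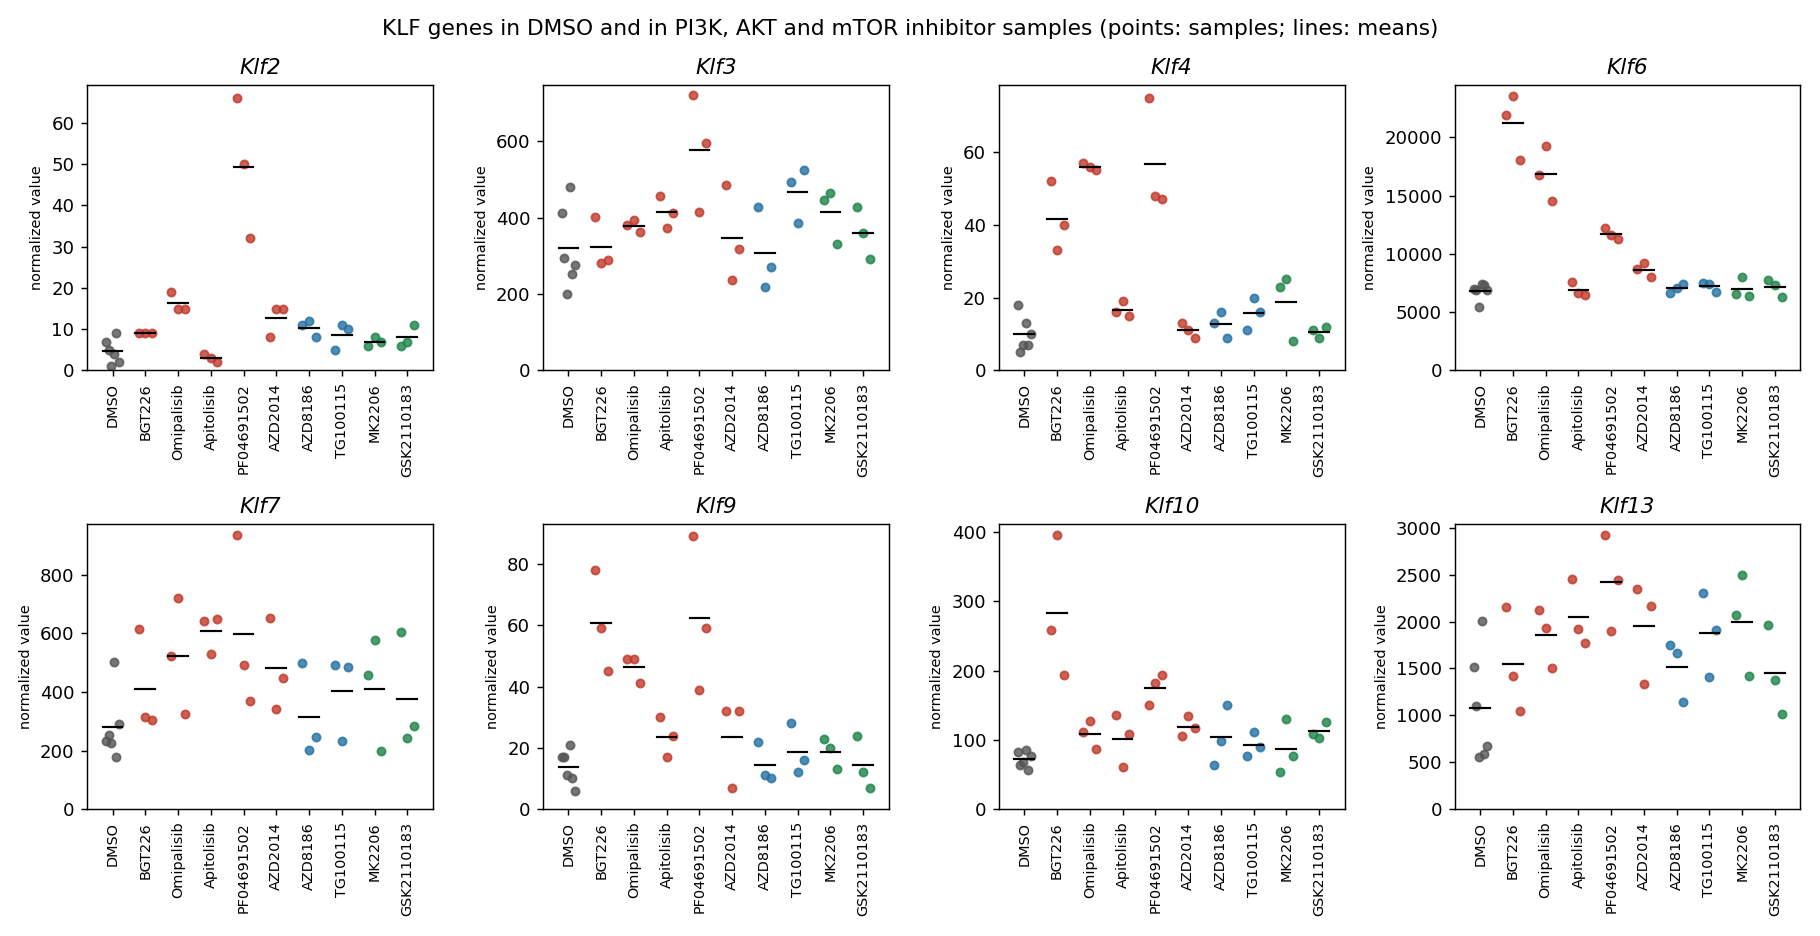
Normalized value (vertical axes, linear, from 0) of each KLF gene in each sample of DMSO (grey), 5 PI3K/mTOR inhibitors (red), 2 PI3K inhibitors (blue) and 2 AKT inhibitors (green). Points are samples and lines are means; for Klf6, all 9 samples of BGT226, Omipalisib and PF04691502 lie at 11236 or more, above the highest DMSO sample at 7442.

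Klf6 (mouse chr13:5861489-5870393, plus strand, mm10), an immediate early gene that promotes inflammatory gene expression in macrophages, had the largest absolute change. Its DMSO values were 6961, 6907 and 5409 in set 1 and 7442, 7362 and 6925 in set 2. With BGT226 it was at 21934, 23594 and 18102, with Omipalisib at 16775, 19289 and 14517, and with PF04691502 at 12245, 11622 and 11236. All 9 samples were above all DMSO samples and above all 165 samples of the other 55 CKIs, of which the highest was 10112 in a Mubritinib sample and 30.9% were above the highest DMSO sample. The log2 fold change was 1.63 ± 0.11 (SE) for BGT226 (adjusted p = 2.49e-27), 1.30 ± 0.11 for Omipalisib (adjusted p = 3.85e-20) and 0.78 ± 0.11 for PF04691502 (adjusted p = 1.28e-08) by limma. Of all genes tested, 24.1%, 17.5% and 8.86% were called higher with these CKIs, and 19.5%, 14.8% and 9.05% had all 3 samples above all DMSO samples. These 3 calls held under all 23 alternatives run. AZD2014 gave 8731, 9209 and 8024, also above all DMSO samples, a log2 fold change of 0.35 ± 0.11 (adjusted p = 0.0126, with 6.06% of genes called higher and 6.72% without overlap). The call was lost in 7 of 23 alternatives, among them leaving out DMSO set 1 replicate 3, AZD2014 replicate 1 or AZD2014 replicate 2. Apitolisib values of 7606, 6614 and 6476 overlapped those of DMSO.

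Klf4 (chr4:55527137-55532475, minus strand), which is needed for monocyte differentiation, was at 18, 5 and 7 in DMSO set 1 and at 13, 7 and 10 in set 2. It was at 57, 56 and 55 with Omipalisib, at 75, 48 and 47 with PF04691502, and at 52, 33 and 40 with BGT226. The 9 samples did not overlap with DMSO, and 1 of the 165 samples of the other CKIs, a Mubritinib sample at 33, reached the lowest of them, while 13.3% were above the highest DMSO sample. The log2 fold changes were 2.48 ± 0.44 (adjusted p = 3.46e-06), 2.47 ± 0.44 (adjusted p = 1.88e-05) and 2.04 ± 0.44 (adjusted p = 9.84e-05), by limma, and each call held under all 22 alternatives run. AZD2014 (13, 11 and 9) and Apitolisib (16, 19 and 15) overlapped with DMSO. At values this low, counting error may add to the spread, which was not tested.

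Klf9 (chr19:23141226-23168129, plus strand), a glucocorticoid-induced and circadian KLF, was at 17, 17 and 11 in DMSO set 1 and at 21, 10 and 6 in set 2. It was at 89, 39 and 59 with PF04691502, at 78, 59 and 45 with BGT226 and at 49, 49 and 41 with Omipalisib. All 9 samples were above DMSO, although the replicates of PF04691502 differed by more than those of Omipalisib. Of the 165 samples of the other CKIs, 1, an Afatinib sample at 40, was above the lowest of the 9, and 22.4% were above the highest DMSO sample. The log2 fold changes by limma were 2.13 ± 0.48 (adjusted p = 0.00102), 2.14 ± 0.48 (adjusted p = 0.000194) and 1.78 ± 0.48 (adjusted p = 0.00292). The Omipalisib call was lost in 1 of 22 alternatives, without replicate 2 of every group, and the other calls in 0.

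Klf10 (chr15:38291464-38300711, minus strand), an early target of TGF-β signalling, was at 83, 63 and 68 in DMSO set 1 and at 85, 56 and 76 in set 2. BGT226 samples were at 259, 395 and 194 and PF04691502 samples at 150, 182 and 194, all above DMSO, as were those of 19.5% and 9.05% of all genes. The log2 fold changes were 1.92 ± 0.31 (adjusted p = 1.17e-07) and 1.28 ± 0.31 (adjusted p = 0.00197) by limma, and both held under all 23 alternatives. Omipalisib values of 111, 127 and 87 and AZD2014 values of 105, 135 and 117 were also above all DMSO values (14.8% and 6.72% of all genes were), but did not pass the test. Of the 165 samples of the 55 CKIs other than BGT226, Omipalisib and PF04691502, 51.5% were above the highest DMSO sample, so the DMSO range was low among the groups for this gene. The highest of the 165 was a Poziotinib sample at 166, above the PF04691502 sample at 150.

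Klf2 (chr8:72319062-72321654, plus strand) was at 7, 5 and 1 in DMSO set 1 and at 4, 9 and 2 in set 2. PF04691502 samples stood apart at 66, 50 and 32. Omipalisib gave 19, 15 and 15, AZD2014 8, 15 and 15, BGT226 9, 9 and 9, and Apitolisib 4, 3 and 2. The highest of the 165 samples outside BGT226, Omipalisib and PF04691502 was 16. As the gene was under the filter, an exact two-sided permutation test against DMSO was added after its values were seen. The exact permutation test gave p = 0.0119 for PF04691502, the smallest that 84 splits allow, 0.0238 for Omipalisib and 0.0476 for AZD2014, with adjusted values over 9 CKIs of 0.107, 0.107 and 0.134, where 0.107 is also the lowest that 1 fully separated CKI alone could reach, so that the adjusted values say little either way. In the limma fit without the filter, over 30850 genes, Klf2 was higher with PF04691502 (log2 fold change 3.29 ± 0.40, adjusted p = 3.28e-10), Omipalisib (1.80 ± 0.40, adjusted p = 0.000444) and AZD2014 (1.42 ± 0.40, adjusted p = 0.0105) and with no other of the 58 CKIs. No share of all genes is given for that fit. In the fit with the filter, 8.86% of genes were higher with PF04691502, 17.5% with Omipalisib and 6.06% with AZD2014.

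Klf13 (chr7:63886351-63938915, minus strand), which regulates Ccl5 in lymphocytes, was called higher with PF04691502, Apitolisib, AZD2014 and Omipalisib, with log2 fold changes of 1.32, 1.09, 0.99 and 0.95. These calls rested on a DMSO group that was itself spread, from 554 to 2009. PF04691502 values of 2925, 1896 and 2439 overlapped with the highest DMSO sample, as did the values of the other 3. Among the 58 CKIs, 57 had a mean log2 value above DMSO. The PF04691502 call was lost in 3 of 23 alternatives, among them without replicate 2 of every group, but not on leaving out any DMSO sample singly. The Apitolisib, AZD2014 and Omipalisib calls were lost in 11, 10 and 11, for each of these 3 including the alternatives without DMSO set 1 replicate 3 and without DMSO set 2 replicate 2. With the replicate as a block, Klf13 was also called with TG100115 (adjusted p = 0.0221 by limma), whose replicate numbers paired with those of DMSO, and with MK2206 (adjusted p = 0.00432) and BGT226 (adjusted p = 0.0264), whose numbers did not pair by the same measure. The block raised calls over all genes too, from 2.52% to 4.6% of the gene and CKI pairs being higher.

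Klf7 (chr1:64035663-64121389, minus strand) and Klf3 (chr5:64803521-64832901, plus strand), a repressor that recruits CtBP, were both called higher with PF04691502. Klf7 was at 233, 253 and 226 in DMSO set 1 and at 502, 177 and 290 in set 2. With Apitolisib Klf7 was at 643, 530 and 650, above all DMSO samples (log2 fold change 1.19 ± 0.38, adjusted p = 0.0279 by limma, with 12.7% of genes called higher and 11.9% without overlap), and the call was lost in 10 of 23 alternatives, among them leaving out DMSO set 2 replicate 2 or any 1 Apitolisib replicate. With PF04691502 Klf7 ranged from 368 to 937 and the call (1.06 ± 0.38, adjusted p = 0.0483) was lost in 17 of 23. Klf3 was at 722, 414 and 596 with PF04691502 against 199 to 481 in DMSO (0.88 ± 0.25, adjusted p = 0.0122). This Klf3 call was lost in 6 of 23, including with DMSO set 2 only and without PF04691502 replicate 1, but not on leaving out any single DMSO sample.

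Klf13, Klf3, Klf7 and Klf9 differed by replicate number as well as by treatment. In samples numbered 1, 2 and 3, the median of the 58 CKI samples was 1870, 1461 and 1130 for Klf13, while the DMSO samples were at 1520 and 2009, at 1100 and 593, and at 554 and 668. The DMSO samples of Klf13 numbered 2 and 3 were below the CKI medians in both sets. For Klf9 the CKI medians were 21, 15 and 11, and the DMSO samples were at 17 and 21, at 17 and 10, and at 11 and 6. For Klf6 the CKI medians were 6946, 7404 and 6416, a narrower spread than the differences with BGT226, Omipalisib and PF04691502. What the replicate numbers stand for was not given beyond independent replicates. Without replicate 2 of every group the Klf13 calls of PF04691502, Apitolisib, AZD2014 and Omipalisib were lost, and without replicate 3 those of the last 3.

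**Figure D2:**
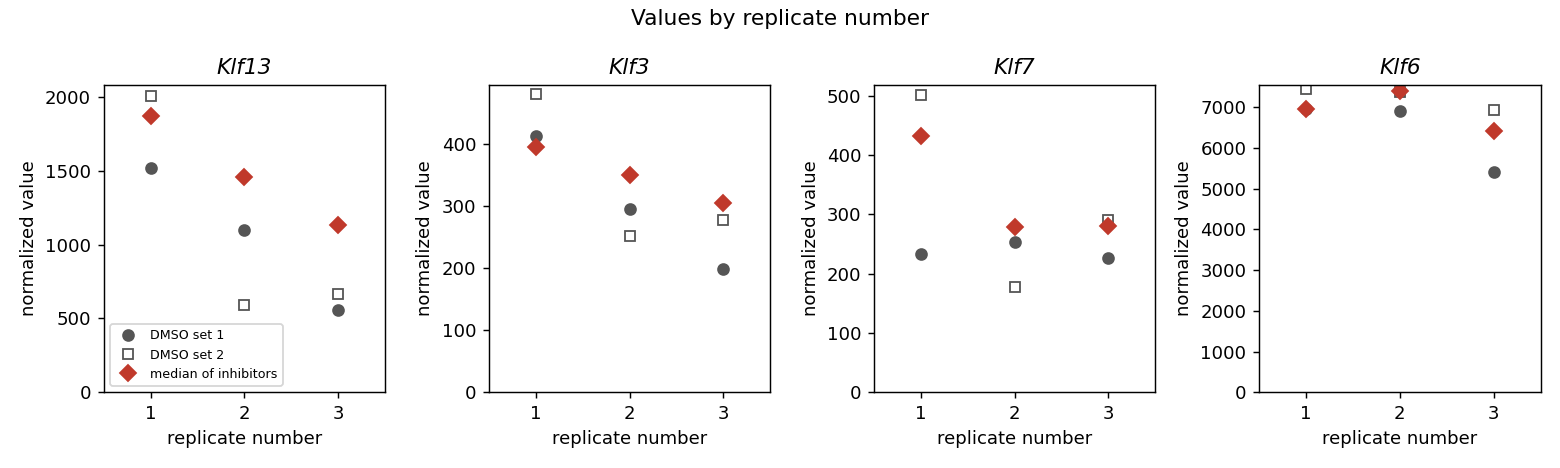
Normalized value (vertical axes, from 0) of 4 KLF genes by the replicate number of the labels (horizontal axes), for the DMSO sample of each set and for the median of 58 CKI samples. For Klf13, both DMSO samples numbered 3 (554 and 668) lie below the CKI median of 1130.

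Over the 58 CKIs, 406 pairs of KLF gene and CKI were tested, of which 26 were higher and 3 lower (over all genes, 2.52% and 1.65% of such pairs were), and 45 CKIs had no KLF call. The 5 PI3K/mTOR inhibitors held 19 of the 26 rises, from 35 pairs, where 13.8% of the pairs of all genes with these CKIs were higher. With the replicate number as a block there were 42 rises, where 4.6% of the pairs of all genes were higher. The 5 PI3K/mTOR inhibitors then held 21 of the 42, where 19.1% of the pairs of all genes with these CKIs were higher, and the 21 included Klf7 with Omipalisib (adjusted p = 0.0294 by limma). BGT226, Omipalisib and PF04691502, singled out after their values were seen, held 15 rises from 21 pairs without the block, where 16.8% of the pairs of all genes were higher. Outside the PI3K, AKT and mTOR inhibitors, Lapatinib, an ERBB inhibitor, was called for Klf3, Klf7 and Klf13 (log2 fold changes 0.72, 1.06 and 0.97, with 18.1% of genes higher), Tofacitinib for Klf3 (0.88, with 9.02% higher), Lenvatinib and Pimasertib for Klf13 (1.05 and 1.01, with 11.4% and 16% higher) and Mubritinib for Klf6 (0.38, with 1.08% higher), each lost in 8 to 11 of 20 alternatives. Each of these calls was lost without DMSO set 1 replicate 3, and all but that of Mubritinib were lost without DMSO set 2 replicate 2. The 3 falls were Klf6 with Midostaurin, Klf6 with Filgotinib and Klf4 with BMS911543. Klf6 was at 4398, 5081 and 3780 with Midostaurin, below all DMSO samples (log2 fold change -0.63 ± 0.11, adjusted p = 7.54e-06 by limma, with 1.93% of genes lower), and the call held under all 20 alternatives. Filgotinib values of Klf6 were 5297, 5623 and 4464 (-0.41 ± 0.11, adjusted p = 0.00255, with 14.6% of genes lower), which overlapped with the lowest DMSO sample, and the call was lost in 3 of 20 alternatives, with only the groups compared, with DMSO set 1 only and without replicate 1 of every group. Klf4 was at 1, 5 and 5 with BMS911543 (-1.29 ± 0.44, adjusted p = 0.0484, with 8.08% lower), a call lost in 10 of 19 alternatives, among them leaving out DMSO set 1 replicate 1 or any 1 sample of DMSO set 2.

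**Figure D3:**
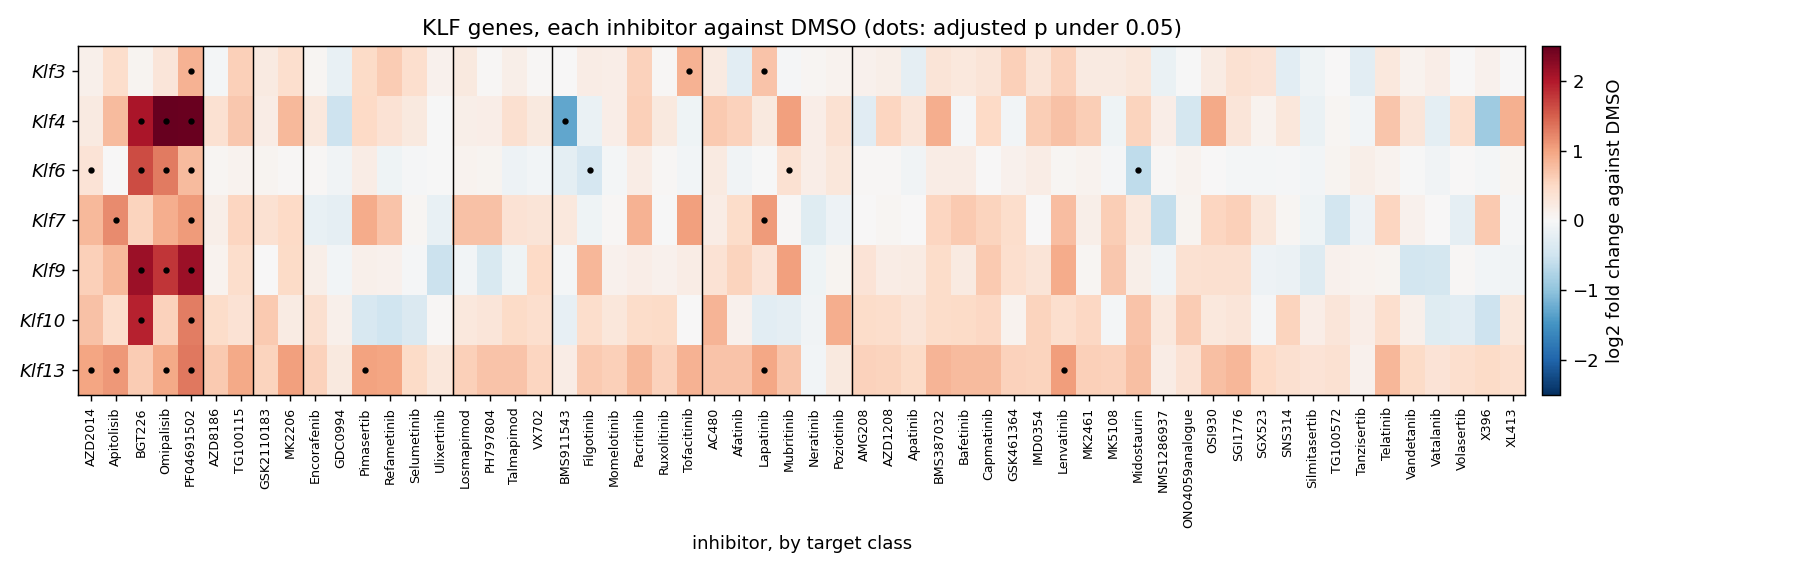
Log2 fold change against DMSO (colour) of the 7 KLF genes tested, in rows, for each of 58 CKIs, in columns ordered by target class, with dots at an adjusted p under 0.05. Of 26 rises, 19 are in the 5 PI3K/mTOR inhibitors at the left (21 of 42 with the replicate block, which is not drawn), and Klf13 is above 0 in 57 of 58 columns.

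As a class, the 5 PI3K/mTOR inhibitors had 6 of 7 KLF genes higher than DMSO, where 24.8% of all genes were higher. The median log2 difference of the 7 was 0.99, against 0.11 over all genes tested. Klf4 was higher by 1.60 ± 0.30 (adjusted p = 1.2e-05), Klf9 by 1.49 ± 0.33 (adjusted p = 0.000179), Klf13 by 1.00 ± 0.23 (adjusted p = 0.000314), Klf10 by 0.99 ± 0.21 (adjusted p = 8.38e-05), Klf7 by 0.90 ± 0.26 (adjusted p = 0.00412) and Klf6 by 0.82 ± 0.07 (adjusted p = 9.93e-18). Klf3 was at 0.36 ± 0.17 (adjusted p = 0.0884, and 0.0384 with the replicate block). The class mean covers CKIs that differed, since Apitolisib and AZD2014 did not share the Klf4 and Klf9 calls. Leaving out each of the 5 in turn, an alternative added after the data were seen, kept 6 or 7 genes called.

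Comparisons that do not use the DMSO samples gave a test of the class against other CKIs. The neutrophil genes Elane and Mpo were lower in the class than with the 53 other CKIs and than with the PI3K and AKT inhibitors. Against the 53 other CKIs, 6 of 7 KLF genes were higher, where 24.3% of all genes were. Klf6 was higher by 0.80 ± 0.04 (adjusted p = 8.27e-37), Klf4 by 1.36 ± 0.17 (adjusted p = 1.99e-11) and Klf9 by 1.33 ± 0.18 (adjusted p = 1.1e-09). Klf13 was higher by 0.41 ± 0.13 (adjusted p = 0.00649), less than against DMSO, and this call was lost without replicate 3 of every group and without PF04691502. Against the PI3K and AKT inhibitors AZD8186, TG100115, MK2206 and GSK2110183, 4 of 7 were higher (11.9% of all genes): Klf9 by 1.24 ± 0.26 (adjusted p = 0.000138), Klf4 by 1.09 ± 0.24 (adjusted p = 0.000269), Klf6 by 0.76 ± 0.06 (adjusted p = 9.73e-22) and Klf10 by 0.57 ± 0.17 (adjusted p = 0.00714). The Klf10 call was lost without replicate 1 of every group (0.37) and without BGT226 in the class mean (0.34). Klf7 differed by 0.51 ± 0.21 (adjusted p = 0.0679 by limma) and passed the test in 7 of 44 alternatives. Klf13 differed by 0.20 ± 0.18 (adjusted p = 0.490) and Klf3 by 0.07 ± 0.14 (adjusted p = 0.801). Against the 6 RAF/MEK/ERK inhibitors, 5 of 7 were higher (18.2% of all genes), with Klf10 at 1.11 ± 0.15 (adjusted p = 9.33e-10). In this comparison Klf13 was at 0.40 ± 0.17 (adjusted p = 0.0542 by limma) and passed the test in 8 of 32 alternatives.

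**Figure D4:**
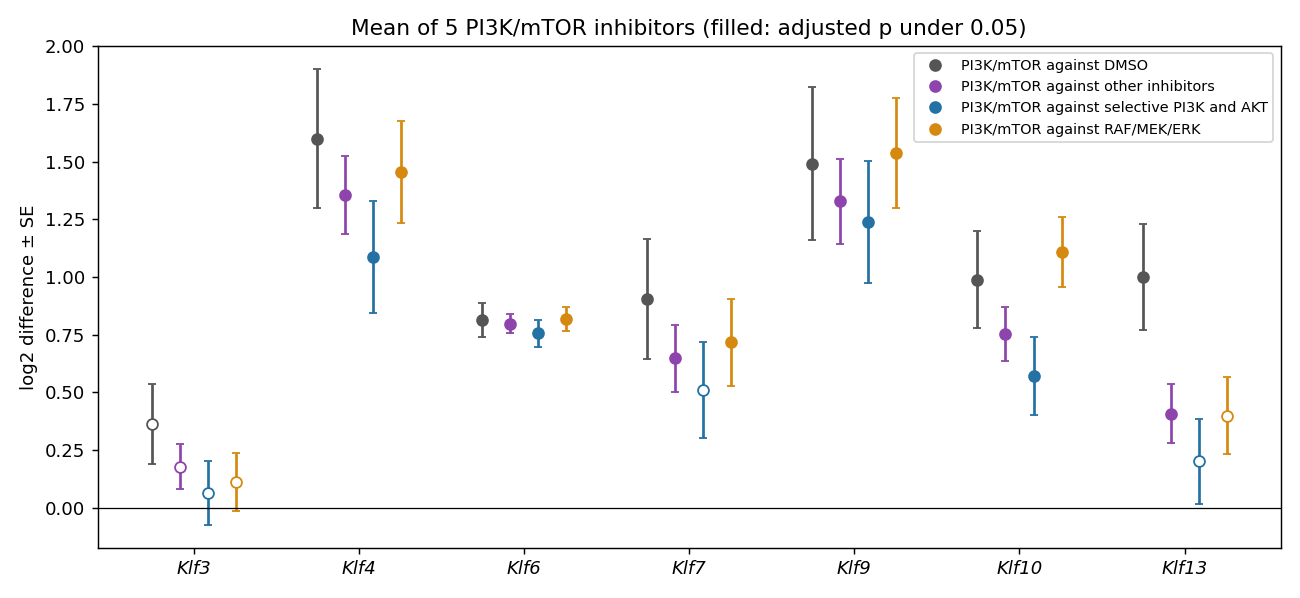
Log2 difference ± SE (vertical axis) between the mean of the 5 PI3K/mTOR inhibitors and 4 references, for each KLF gene tested, with filled points at an adjusted p under 0.05. Klf6 lies between 0.76 and 0.82 against all 4 references, whereas Klf13 lies at 1.00 against DMSO and at 0.20 against the PI3K and AKT inhibitors.

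The other 6 classes, taken as class means against DMSO, had 0 KLF genes called of 7 each. For the PI3K inhibitors (0.0157% of all genes higher), AKT inhibitors (2.89%), RAF/MEK/ERK inhibitors (0.0629%), p38 inhibitors (0.692%), JAK inhibitors (6.33%) and ERBB inhibitors (0.613%), Klf6 lay between -0.09 and 0.16 on the log2 scale. Klf13 lay between 0.54 and 0.80 in all 6, with unadjusted p between 0.00423 and 0.0174 by limma and none under the threshold after adjustment. With the replicate number as a block, which pairs the samples for 34 of the 58 CKIs, Klf13 was called in all 6, with adjusted p between 0.00403 and 0.0344 by limma, and with the mitochondrial share added to the block it was called in 2 of the 6, p38 and JAK. The class shares of all genes given here are from the fit without the block. Over the single CKIs, 2.52% of all gene and CKI pairs were higher without the block and 4.6% with it.

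Of the 9 other KLF genes in the table, 3 were abundant enough to test. Klf11, a relative of Klf10, rose with BGT226 (71, 74 and 68, against 18 to 27 in DMSO, log2 fold change 1.65 ± 0.41), Omipalisib (61, 50 and 68, 1.39 ± 0.41) and PF04691502 (59, 48 and 65, 1.33 ± 0.41), with adjusted p of 0.000866, 0.00722 and 0.0208 by limma. It fell with BMS911543 (11, 14 and 3, log2 fold change -1.36 ± 0.41, adjusted p = 0.0198). Klf8 rose with Omipalisib alone of the 9 inhibitors (513, 466 and 832, against 80 to 288 in DMSO, 1.65 ± 0.33, adjusted p = 4.06e-05). It fell with Afatinib (-0.99 ± 0.33, adjusted p = 0.0213) and Midostaurin (-1.11 ± 0.33, adjusted p = 0.0296). Klf16 was higher with 8 CKIs, MK2206 and Apitolisib included, and most with Filgotinib (1.40 ± 0.25, adjusted p = 4.65e-06 by limma). The share of all genes higher with these 8 CKIs ran from 0.378% with Momelotinib to 18.1% with Lapatinib. It was 0.983% with MK2206, 6.1% with Filgotinib and 12.7% with Apitolisib. Among class means against DMSO, Klf16 was higher in the AKT (0.68 ± 0.20, adjusted p = 0.0383 by limma) and JAK classes (0.91 ± 0.16, adjusted p = 7.22e-05). Klf11 was higher in the PI3K/mTOR class (0.93 ± 0.28, adjusted p = 0.00653). The shares of all genes higher were 2.89%, 6.33% and 24.8%. Klf15 and Klf17 were listed at 0 in all 180 samples. Of the 4 SP genes tested, which bind the same GC boxes, 0 passed the test in the PI3K/mTOR class against DMSO (24.8% of all genes were higher), and Sp1 and Sp3 were at 0.17 and 0.18. In single comparisons Sp3 was higher with BGT226 (0.78 ± 0.18) and PF04691502 (0.53 ± 0.18) and Sp2 with Apitolisib (0.35 ± 0.11), and Sp1 (0.37 ± 0.12) and Sp2 (0.25 ± 0.07) were higher in the JAK class.

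Genes of the surrounding pathways were described from lists, in the PI3K/mTOR class against DMSO, in which 24.8% of all genes were higher and 12% lower, with a median of 0.11. Of 18 FOXO and PI3K feedback genes tested, 11 were higher and 1, Sesn1, was lower (-0.61 ± 0.20), with a median of 0.68. Irs2, an insulin receptor adaptor, was higher by 1.81 ± 0.26, Gadd45a by 1.53 ± 0.18, Foxo3 by 1.34 ± 0.25 and Foxo4 by 1.27 ± 0.30, while Foxo1 was higher by 0.65 ± 0.27 (adjusted p = 0.0475). Of 7 genes of the ERK5 and MEF2 module, 2 were higher, a share near that of all genes, namely Mef2d by 0.73 ± 0.11 and Map3k3 by 0.64 ± 0.19, and Mapk7, which encodes ERK5, was at 0.13 ± 0.15, Mef2a at 0.33 ± 0.14 and Mef2c at 0.37 ± 0.19. Of 9 early TGF-β genes, 5 were higher, namely Tgif1 (1.61 ± 0.14), Id3 (1.21 ± 0.17), Smad7 (0.77 ± 0.31), Smad3 (0.60 ± 0.20) and Skil (0.39 ± 0.14). Of 17 immediate early genes, 7 were higher and 2 lower, with Fosb at 2.14 ± 0.30, Nr4a1 at 0.94 ± 0.22, Egr3 at 0.87 ± 0.30, Dusp1 at -1.37 ± 0.27 and Jun at -0.45 ± 0.18. Of 11 genes that KLFs are known to restrain, 2 were higher (Ccl5 by 0.66 ± 0.21, Ccl2 by 0.51 ± 0.08) and 4 lower (among them Hif1a by -0.92 ± 0.14, F3 by -0.67 ± 0.22 and Vcam1 by -0.60 ± 0.14), against 24.8% and 12% of all genes. Of 6 genes that KLFs are known to raise, 2 were higher, also near the share of all genes, namely Pparg by 0.55 ± 0.14 and Thbd by 0.49 ± 0.15. Of 13 KLF cofactors and ubiquitin ligases, Fbxw7 was higher by 0.61 ± 0.24, and Hdac2 (-0.81 ± 0.27) and Ctbp2 (-0.41 ± 0.11) were lower.

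Macrophage markers were present in all groups named, and their 9 genes summed to 137000 ± 43240 in DMSO, with Lyz2 the most abundant at 68500. In the PI3K/mTOR inhibitor groups the sum lay between 147400 with BGT226 and 209200 with Apitolisib. Of the 9 genes, 4 were higher in the class, namely Cd68 (0.90 ± 0.31), Mertk (0.60 ± 0.11), Cd14 (0.43 ± 0.16) and Csf1r (0.14 ± 0.04), and Spi1 was lower (-0.45 ± 0.13). The 6 neutrophil genes summed to 326 ± 129 in DMSO, 248 ± 131 with BGT226, 203 ± 52.0 with Omipalisib, 281 ± 146 with PF04691502, 351 ± 97.5 with AZD2014 and 763 ± 244 with Apitolisib, with S100a8 the most abundant, and Ly6g was under 1 in each. With AZD8186, TG100115, MK2206 and GSK2110183 they summed to 362 ± 206, 751 ± 265, 717 ± 330 and 627 ± 435. Against DMSO, 2 of the 5 neutrophil genes tested were lower in the class, Elane (-1.47 ± 0.26) and Mpo (-0.96 ± 0.33), where 12% of all genes were. The median of the 5 was 0.05, against 0.11 over all genes, so the list did not fall as a whole. With Apitolisib 1 of the 5 was higher than in DMSO, with a median of 1.27. Of 5 neutrophil genes tested, 4 were lower in the class than with the 53 other CKIs, where 17.2% of all genes were lower. They were Elane (-1.55 ± 0.15), Mpo (-1.28 ± 0.18), S100a9 (-0.54 ± 0.22) and S100a8 (-0.49 ± 0.20), and the median of the 5 was -0.54 against 0.04 over all genes. Against the PI3K and AKT inhibitors 2 were lower (8.98% of all genes were), Elane (-1.59 ± 0.21) and Mpo (-1.52 ± 0.26), with a median of -0.76. The part of these markers in the KLF results was not tested. Lymphoid markers summed to 0.333 in DMSO and mast cell markers to 0.167. The 2 dendritic cell genes summed to 15.0 ± 8.29 in DMSO, the 4 stromal genes to 56.0 ± 50.2 and the 2 endothelial genes to 3.83 ± 2.48. The endothelial genes, too low to test, summed to 8.0 ± 1.0 with BGT226, 8.67 ± 2.89 with Omipalisib and 6.33 ± 4.51 with PF04691502. With Apitolisib they summed to 7.0 ± 1.0 and with AZD2014 to 3.33 ± 1.53. The share of mitochondrially encoded transcripts had a mean of 1.15% (0.759 to 1.94) in DMSO, 1.57% (0.884 to 2.11) with BGT226, 1.81% (1.29 to 2.19) with Omipalisib, 2.69% (1.71 to 4.45) with PF04691502, 2.93% (1.49 to 4.04) with Apitolisib and 1.16% (0.965 to 1.54) with AZD2014, which was at the level of DMSO. With this share as a covariate beside the replicate block, 6 KLF genes were still higher in the class. No share of all genes is given for that fit, and the 24.8% given for the class is from the fit without block or covariate. In the same fit, the calls of Klf7 and Klf13 with Apitolisib, Klf3 and Klf7 with PF04691502, Klf3, Klf7 and Klf13 with Lapatinib, Klf3 with Tofacitinib, and Klf13 with Lenvatinib and Pimasertib were lost.

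Across the 59 group means, Klf4, Klf6 and Klf9 varied together, with Pearson's r of 0.702 for Klf4 and Klf6, 0.715 for Klf4 and Klf9, and 0.693 for Klf6 and Klf9. Without the 9 PI3K, AKT and mTOR inhibitor groups these were 0.329, 0.310 and 0.107. Klf13 and Klf7 (0.804), Klf13 and Klf3 (0.702) and Klf3 and Klf7 (0.694) varied together with those groups and without them (0.766, 0.673 and 0.696). The points share the DMSO and LPS design and the replicate numbers, and no test was made. Klf6 was most like Rsbn1l (0.899), Pmaip1 (0.899) and Nceh1 (0.892), and least like D8Ertd738e (-0.841). Klf9 was most like Ier5 (0.821), Nr1d1 (0.817) and Zfp36l2 (0.801), and Klf4 was most like Arf2 (0.782), Dyrk2 (0.781) and Rora (0.781). Both were least like Cnn2, at -0.790 for Klf9 and -0.726 for Klf4. Klf10 was most like Ell (0.792), Bhlhe40 (0.782) and Lyl1 (0.764) and least like Ccdc25 (-0.746). Klf13 was most like Map3k3 (0.889), Gnaq (0.881) and Rpl4 (0.874) and least like Cul2 (-0.859). Klf3 was most like Picalm (0.914), Rmnd5a (0.885) and Norad (0.878) and least like Anapc5 (-0.763). Klf7 was most like Gstm2-ps1 (0.898), Gstm1 (0.888) and Cr1l (0.885) and least like Ndufab1-ps (-0.797), of which the first pair belong to 1 gene family whose members can share reads. Klf2 was most like Gm8337 (0.645), Gm7232 (0.639) and Hspa8 (0.625) and least like Wdr6 (-0.610).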

How the data were processed

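RNA-seq was performed on 180 samples, which were grouped by their labels. Per the labels, the authors aligned reads to mm10 with TopHat2 (2.1.1) and used bedtools (2.29.2). The methods state that reads on curated RefSeq exons were counted and scaled on invariant genes, and the authors deposited these normalized values as whole numbers, treated here as a score and not as counts. As the values were scaled and rounded, a test on log2 values was chosen, and the DESeq2 test named in the methods was not run. Whether counting used strand was not given, so overlapping and antisense genes cannot be told apart.

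Values were tested as log2(value + 1) with limma (3.58.1, R 4.3.3) with a variance trend, over 59 groups (121 residual degrees of freedom) and the 12714 genes with a mean of at least 10, and p-values were adjusted by Benjamini-Hochberg over these genes with a threshold of 0.05. Fold changes on this scale understate changes of low genes. The procedure was tested on simulated data. The members, lists and classes were chosen with earlier results of these data known. Classes follow the designated targets that the study lists from suppliers, not the intended kinase on which it set each concentration. Momelotinib, used at a concentration for IKBKE, is therefore in the JAK class and TG100572, used at one for TYK2, is not.

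Named genes were the 8 KLF genes, the other KLF and SP genes, up to 4 called genes of each list with the largest change, Foxo1, Foxo3, Mapk7 and the Mef2 genes, and the 3 most and 1 least similar gene for each KLF gene. CKIs were named if they target PI3K, AKT or mTOR or had a call. Further members of counts of 5 or fewer are named too, after their values were seen, except 1 gene that is not reported here. Replicate numbers were taken to pair an inhibitor with DMSO where the deviations of each same-numbered pair correlated by over 0.1, which was so for 34 of 58 CKIs and for 4 of the 9 PI3K, AKT and mTOR inhibitors (Apitolisib, AZD8186, TG100115 and GSK2110183). The labels do not say that replicates came from separate animals, so p-values measure the spread between these samples. The alternatives were the pseudocount, filter, scaling, trend, samples fitted, DMSO set, replicate block, mitochondrial share and single replicates. Depth is known only as totals of scaled values, and Python 3.11.15 with SciPy 1.17.1 was used for permutation tests.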

Additional observations from a re-analysis of the deposited data

Results flagged for a closer look

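Among the 8 KLF genes, 2 had a DMSO sample far from the other 5 by Dixon's criterion, which chance alone flags in about 1 of 20 groups. Klf6 was at 5409 in DMSO set 1 replicate 3, with the others between 6907 and 7442, and this gap was 0.737 of the range. Klf7 was at 502 in DMSO set 2 replicate 1, with the others between 177 and 290, and this gap was 0.652 of the range. The Klf6 calls with AZD2014 and Mubritinib were lost without DMSO set 1 replicate 3, as given above. Beyond leaving out single samples, neither was weighed further.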

How the results depend on the processing

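Sensitivity was computed for the class comparisons and for the gene and CKI pairs that passed the test. Pairs that did not pass were not recomputed one by one. Of the single values, 2415 kept their direction and side of the threshold, 161 lost and 37 gained significance, and 41 changed sign.

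The count of KLF gene and CKI pairs called (29) was 19 without the filter, 16 with only the groups compared, 16 with DMSO set 1 only, 15 with DMSO set 2 only and 46 with the replicate block, and it lay between 13 and 40 when single replicates were left out. The number of genes higher in the PI3K/mTOR class than in DMSO (6) was 6 or 7 without single replicates, 7 with the replicate block, 5 with DMSO set 2 only, where Klf7 was lost, and 4 with a filter at 50. Against the PI3K and AKT inhibitors it was 2 with a filter at 50, and against the RAF/MEK/ERK inhibitors 3, since that filter leaves out Klf4 and Klf9. In the other classes the count of 0 became 1 with a filter at 50, 6 with the replicate block (Klf13 in each class), 2 with the block and the mitochondrial share, and 0 to 5 without single replicates. Of the 24 genes most like the KLF genes, 5 were also among the most alike without the 9 PI3K, AKT and mTOR inhibitor groups and 9 with Spearman's rho. The cause was not tested.

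The signs that changed were all of values that did not pass the test. With a pseudocount of 10, Klf9 in the p38 class was at 0.0135. With median-of-ratios scaling, Klf6 was at -0.011 in the PI3K and -0.0346 in the AKT class. With DMSO set 1 only, Klf6 was at 0.0885 in the RAF/MEK/ERK and 0.0776 in the p38 class, and with DMSO set 2 only at -0.0227 in the PI3K and -0.0398 in the AKT class, with Klf9 at 0.16 in the RAF/MEK/ERK and 0.19 in the p38 class. With the block and the mitochondrial share, Klf7 was at -0.0061 in the PI3K, -0.0239 in the AKT and -0.15 in the RAF/MEK/ERK class. Without PF04691502, Klf3 in the PI3K/mTOR class was at -0.0638 against the PI3K and AKT and -0.0159 against the RAF/MEK/ERK inhibitors, an alternative added after the data were seen. Without single replicates, Klf3 in the p38 class ranged from -0.0462 to 0.35, Klf4 from -0.52 to 0.39 in the JAK, -0.24 to 0.42 in the RAF/MEK/ERK and -0.17 to 0.58 in the p38 class, Klf6 from -0.0149 to 0.093 in the AKT, -0.0682 to 0.0295 in the RAF/MEK/ERK, -0.0791 to 0.013 in the p38 and -0.00187 to 0.12 in the PI3K class, and Klf9 from -0.24 to 0.14 in the RAF/MEK/ERK and -0.21 to 0.15 in the p38 class.

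Between DMSO set 2 and set 1, limma called 0 genes, with 310 of 12714 at an unadjusted p under 0.05. Low values limit the precision for Klf2, Klf4 and Klf9.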
